A study of Mus musculus with 4 samples.

Results

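Among CD4 T cells sorted from mouse brain late in experimental autoimmune encephalomyelitis (EAE), 164 cells carried transcripts of the collagen-binding integrin Itga1 and of the chemokine receptor Cxcr6 but no transcript of Il17a, Ifng or Foxp3. They were chosen by their own counts: at least 1 unique molecular identifier (UMI) of Itga1, at least 1 of Cxcr6 and 0 of Il17a, Ifng and Foxp3, in barcodes that passed the quality filters. They made up 164 of 3964 brain cells kept (4.14%, exact 95% binomial interval 3.54% to 4.80%) and 164 of the 12123 cells kept from both tissues. They are called resident-like cells below. Since these 5 genes chose the cells, their levels are given as a description. Every other gene was read in the same cells that the rule picked, so the gene comparisons below describe these cells and carry no test.

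EAE, an immune disease of the central nervous system set off by immunization, had been induced in wild-type C57BL/6 mice. Conventional CD4 T cells were sorted as CD4+ CD44+ GITR- from brain and spleen on day 60. CD44 marks cells that have met antigen, and GITR, the product of Tnfrsf18, is high on regulatory T cells. Each tissue gave 1 RNA library and 1 T cell receptor library by droplet sequencing from the 5′ end of transcripts, and how many animals were pooled is not given in the labels.

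The groups compared all come from these same mice, genotype and day. The resident-like cells (n = 164) were set against brain Itga1+ Cxcr6+ cells that had at least 1 UMI of Il17a or Ifng and 0 of Foxp3 (n = 820, called cytokine-positive below), against spleen cells that met the same rule (n = 311), and against all brain cells with 0 Itga1 UMIs (n = 2833). With 1 library per tissue there was no replicate, so no p-value is given. Intervals beside ratios and shares are exact 95% intervals and cover counting error alone.

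Tissue-resident memory T cells stay in a tissue after an immune response and do not return to the blood. They typically switch off the transcription factor Klf2 and its target S1pr1, the receptor for the lipid that guides T cells out of tissues, and in mice many of them express Zfp683 (Hobit), a transcription factor of resident and innate-like lymphocytes. Itga1, the alpha chain of the integrin that binds collagen IV, and Cxcr6, the receptor for the chemokine Cxcl16, are widely used to mark such cells, while Xcl1 encodes a chemokine that attracts cross-presenting dendritic cells.

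The brain RNA library held 4277 barcodes and 44386447 UMIs, and the spleen library 8707 barcodes and 65191435 UMIs. After filtering, the median depth was 9843.5 UMIs per brain cell and 7159 UMIs per spleen cell. The resident-like cells had a median of 9719 UMIs (range 1503 to 32743), close to the 10883 of cytokine-positive cells and the 9580 of cells with 0 Itga1 UMIs. The 2 libraries shared 31 barcode sequences, 2 of them resident-like cells. Leaving out every shared barcode kept all 16 summary results and all named ratios within the limits used for unchanged values.

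Most resident-like cells rested on few UMIs of the selecting genes. Itga1 stood at 1 UMI in 61 cells, at 2 UMIs in 42 cells and at 3 or more in 61, with a highest value of 11. Cxcr6 stood at 1 UMI in 24 cells and reached 19, and 10 cells had exactly 1 UMI of each. Summed over the group, UMI counts were divided by the group's total and scaled to the usual CPM. Itga1 had 245 CPM and Cxcr6 523 CPM, against 260 and 543 CPM in cytokine-positive cells. On the other side of the rule, 123 of the 820 cytokine-positive cells (15%) had exactly 1 UMI of Il17a and Ifng together, so the border between the groups runs through cells that differ by 1 molecule. As a background level, 7.32% of brain cells with UMIs of Ccr7 and Lef1 and none of Itga1 or Cxcr6, a phenotype of recirculating cells (n = 574), had an Ifng UMI.

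The markers fixed for T cells were present, and those of other brain or blood cells were low. A Cd3 transcript (Cd3d, Cd3e or Cd3g) was found in 98.2% of resident-like cells and Cd4 in 86.0%, against 94.5% and 85.8% of cells with 0 Itga1 UMIs. Ms4a1 and Cd79a of B cells, Lyz2 and Tyrobp of myeloid cells, Tmem119 of microglia, Gfap of glia, Ncr1 of natural killer (NK) cells and Trdc of gamma-delta T cells were at 0 UMIs in all 164 cells. The summed myeloid list, which includes genes that lymphocytes also express, was 1946 CPM against 1940 CPM, the B cell list 96.3 against 117 CPM, the neural list 282 against 268 CPM and the NK list 119 against 117 CPM. The CD8 list was the exception, at 47.2 CPM against 16.1 CPM. Its part in the results was not tested: Cd8a lay in 3 resident-like cells with 31 UMIs and Cd8b1 in 9 cells with 47 UMIs. Either gene was found in 5.49% of resident-like cells, 6.11% of cells with 0 Itga1 UMIs and 8.54% of cytokine-positive cells. The phrase "without cytokine" holds for Il17a and Ifng alone. A UMI of at least 1 of 10 other cytokine genes was present in 68.9% of resident-like cells, against 78.4% of cytokine-positive cells, 52.6% of cells with 0 Itga1 UMIs and 21.4% of the recirculating phenotype. Tnf, which encodes tumour necrosis factor, accounted for most of this, with UMIs in 86 resident-like cells (52.4%), while Il2 was found in 25, Csf2 in 17 and Il10 in 3.

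Part of the genes that mark residency, Zfp683 and Xcl1 among them, were higher than in brain cells with 0 Itga1 UMIs. A gene was called where its CPM ratio was at least 1.5 in either direction with an interval that left out 1; genes under 10 CPM on both sides were not tested. By this rule 450 of 8528 genes (5.28%) were higher and 430 (5.04%) lower in resident-like cells, 10.3% in all. Of 39 measured genes of the residency list, 12 were higher, 1 was lower and 26 were neither, with a median log2 ratio of 0.37 against 0.01 over all genes. Zfp683 (ENSMUSG00000049410) stood at 61.8 CPM in resident-like cells and 12.5 CPM in cells with 0 Itga1 UMIs, a ratio of 4.94 (3.92 to 6.17), and had a UMI in 2 of the 574 cells of the recirculating phenotype. Xcl1 (ENSMUSG00000026573) stood at 138 CPM against 46.8 CPM, a ratio of 2.95 (2.55 to 3.4). Zfp683 and Xcl1 were named as markers with earlier results of these data known, so these levels describe the group and do not test it. Each was seen in a minority of its cells: Zfp683 had a UMI in 32.3% and Xcl1 in 34.1% of resident-like cells, against 7.34% and 6.32% of cells with 0 Itga1 UMIs. After thinning to 5000 UMIs, which left out shallower cells, the shares were 17.4% and 25% of 144 resident-like cells. They were 4.86% and 5.30% of 2470 cells with 0 Itga1 UMIs. Before thinning, 82 of 164 resident-like cells had a UMI of at least 1 of the 2 genes.

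Other genes of the residency list that were higher span several roles. Cdh1, the adhesion molecule E-cadherin, was at 24.2 CPM against 4.94 CPM, a ratio of 4.90 (3.36 to 7.01). Litaf, an endosomal membrane protein, was at 150 CPM against 62.1 CPM, a ratio of 2.42 (2.11 to 2.76). Qpct, the enzyme glutaminyl cyclase, was at 70.9 CPM against 28.6 CPM, a ratio of 2.48 (2.02 to 3.01). The others were Osgin1 at a ratio of 3.94, Gpr34, a receptor for lysophosphatidylserine, at 2.28, Chn2 at 1.95, Adam19 at 1.67, the exonuclease Isg20 at 1.57, the ATP receptor P2rx7 at 1.54 and the phosphatase Dusp6 at 1.51. P2rx7 and Dusp6 fell short of the threshold, at 1.37 and 1.29, once cells with the invariant TRAV11-TRAJ18 receptor were left out. The list then had 11 of 39 genes higher and 2 lower, where 5.05% of all genes were higher and 4.85% lower. With those cells included, the lower gene of the list was Ctla4, an inhibitory receptor also abundant in regulatory T cells. It was at 381 CPM against 762 CPM. Cd69, the surface antagonist of S1pr1, was at 824 CPM against 611 CPM (ratio 1.35, 1.27 to 1.42) and Rgs1 at 981 CPM against 672 CPM (1.46, 1.39 to 1.54), both under the threshold. Itgae, the CD103 chain that marks many epithelial resident cells, gave 1 UMI in all resident-like cells, 0.606 CPM against 6.29 CPM.

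**Figure D1:**
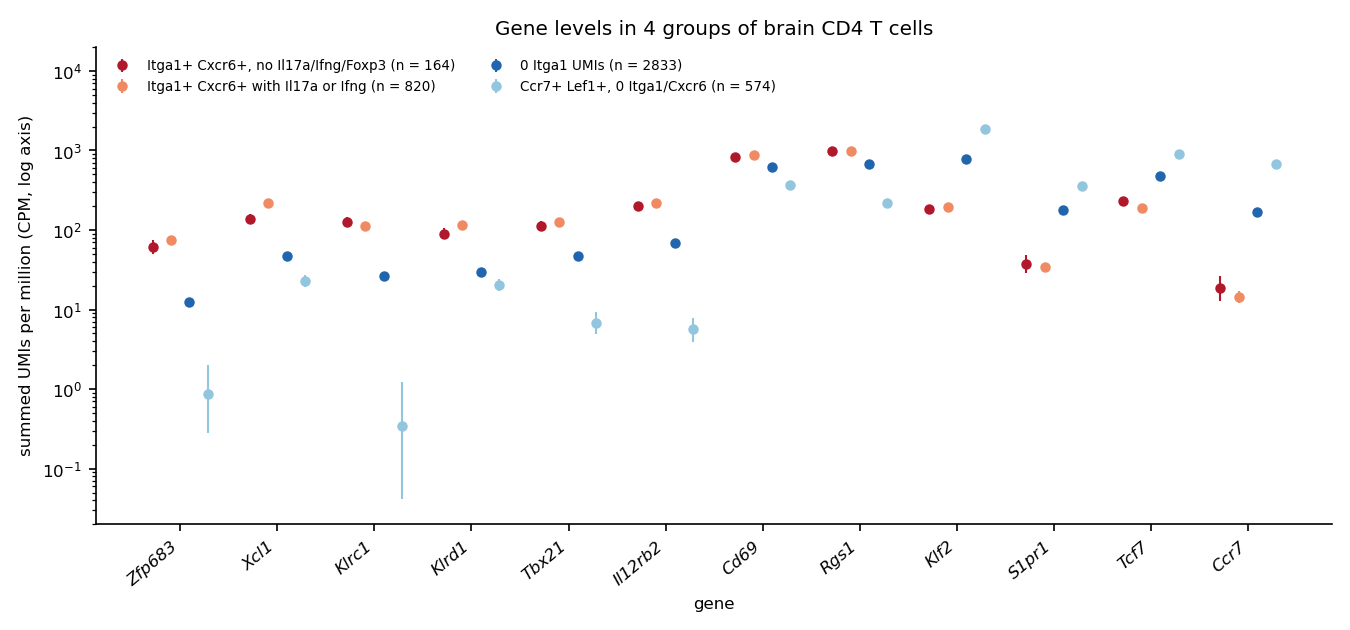
Levels in CPM (log axis) of 12 genes in resident-like cells, cytokine-positive Itga1+ Cxcr6+ cells, brain cells with 0 Itga1 UMIs and brain cells of a recirculating phenotype, which was chosen on Ccr7 and Lef1. Points are group sums, bars are exact 95% counting intervals; Zfp683 stands at 61.8 CPM in resident-like cells and at 12.5 CPM in cells with 0 Itga1 UMIs, while Klf2 stands at 182 and 782 CPM.

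Genes of recirculation and lymph-node homing formed the opposite pattern. Of 19 measured genes of that list, 12 were lower and 1 higher, with a median log2 ratio of -1.05. Ccr7, the chemokine receptor that brings T cells into lymph nodes, was at 18.8 CPM against 166 CPM, a ratio of 0.113 (0.0767 to 0.161). Klf2 was at 182 CPM against 782 CPM, a ratio of 0.232 (0.207 to 0.26), and S1pr1 at 37.5 CPM against 178 CPM, a ratio of 0.211 (0.161 to 0.270). Transcription factors of the stem-like and naive state were lower by less: Tcf7 at a ratio of 0.484, Lef1 at 0.573, Bach2 at 0.391 and Foxo1 at 0.554. The gene of the list that went the other way was Ly6c2, a surface protein of circulating effector cells, at 248 CPM against 76.1 CPM, a ratio of 3.26 (2.93 to 3.63). Ly6c2 and its close copy Ly6c1 could share reads, so its level is uncertain. Among genes of any function with at least 50 CPM in the higher group, the 12 lowest ratios also held Igfbp4 (0.0158), the actin-binding Actn1 (0.0481), Nsg2 (0.117), Aff3 (0.160), the interleukin-6 receptor Il6ra (0.162), adenosine kinase Adk (0.163), Rflnb (0.173), Trib2 (0.176) and Ikzf2 (0.188).

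Within brain Cxcr6+ cells that had none of the 3 cytokine and Foxp3 transcripts, several of these levels differed with the number of Itga1 UMIs. Zfp683 stood at 8.81, 33.9, 60.3 and 88.2 CPM in cells with 0, 1, 2 and 3 or more Itga1 UMIs (531, 61, 42 and 61 cells). Klf2 stood at 472, 259, 205 and 96.0 CPM along the same series. Zfp683 thus lay higher, and Klf2 lower, at each step, and the intervals of the first and last steps did not overlap. Those of 1 and 2 Itga1 UMIs overlapped for both genes, and those of 2 and 3 or more overlapped for Zfp683. TRAV11-TRAJ18 cells numbered 4, 4, 4 and 7 along the series, and their part in these levels was not tested. Tbx21 stood at 34.5, 102, 96.5 and 132 CPM, Il12rb2 at 52.9, 173, 179 and 238 CPM, and Xcl1 at 21.8, 89.7, 193 and 147 CPM. S1pr1 dropped between 0 and 1 UMI and then stayed level, at 125, 33.9, 36.2 and 41.8 CPM, and Tcf7 did the same at 412, 247, 222 and 224 CPM. Ccr7 had no steady order, at 40.4, 16.9, 41.0 and 6.19 CPM. Cells just outside the rule on the Cxcr6 side, with Itga1 and 0 Cxcr6 UMIs, were few (46) and shallow, with a median of 5039 UMIs and a paired receptor in 28.3%. The 24 resident-like cells with 1 Cxcr6 UMI had 57.1 CPM of Zfp683 and 285 CPM of Xcl1, against 50.6 CPM and 8.44 CPM in these 46 cells.

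**Figure D2:**
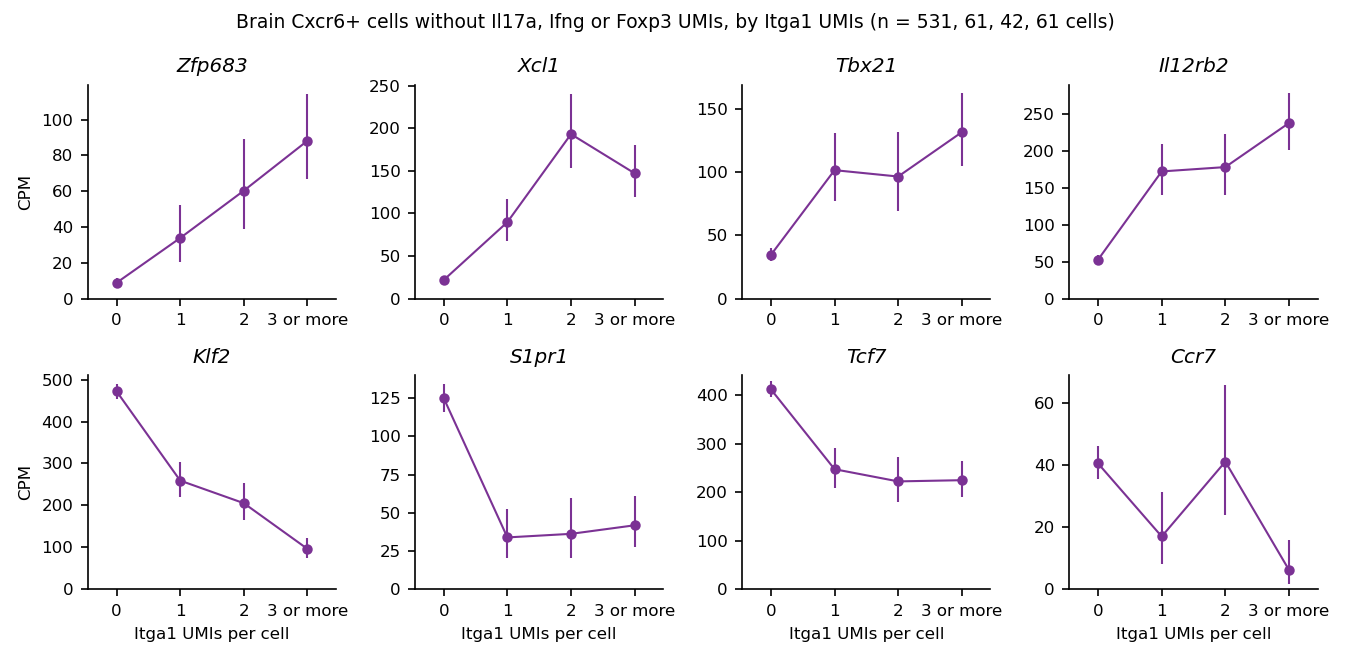
Levels in CPM of 8 genes in brain Cxcr6+ cells without Il17a, Ifng or Foxp3 UMIs, by Itga1 UMIs per cell; the last 3 steps are the resident-like cells. Points are group sums with exact 95% counting intervals; Zfp683 goes up through 8.81, 33.9, 60.3 and 88.2 CPM and Klf2 goes down through 472, 259, 205 and 96.0 CPM.

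The resident-like cells carried the transcripts of the type 1 helper (Th1) program although they had no Ifng. Of 13 measured Th1 genes, 6 were higher and 1 lower than in cells with 0 Itga1 UMIs. Tbx21, which encodes the Th1 master factor T-bet, was at 112 CPM against 47.3 CPM, a ratio of 2.37 (2.02 to 2.77), with UMIs in 57.9% of resident-like cells and 23.9% of cells with 0 Itga1 UMIs. Il12rb2, the signalling chain of the interleukin-12 receptor, was at 200 CPM against 68.3 CPM (2.93, 2.60 to 3.29), and Cxcr3, a Th1 chemokine receptor, at 292 CPM against 160 CPM (1.83, 1.66 to 2.01). Nkg7, a protein of cytotoxic granules, was at 491 CPM against 254 CPM (1.93, 1.80 to 2.08). The chemokine Ccl5 was at a ratio of 1.69 and Hopx at 1.5, whereas Eomes, the T-bet relative, was lower at 6.06 CPM against 17.8 CPM. At least 1 UMI of Tbx21, Il12rb2 or Cxcr3 was present in 93.3% of resident-like cells, against 97.0% of cytokine-positive cells, 54.1% of cells with 0 Itga1 UMIs and 22.1% of the recirculating phenotype.

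Receptors first described on NK cells had the highest median of the 35 lists. Of 9 measured genes, 8 were higher and none lower in resident-like cells, with a median log2 ratio of 2.24. Klrc1, the inhibitory receptor NKG2A, was at 126 CPM against 26.6 CPM (4.74, 4.04 to 5.53) in 55 resident-like cells, and its partner chain Klrd1 (CD94) at a ratio of 3.01 (2.51 to 3.58), with 90.2 CPM in resident-like cells. Both had UMIs in 22.0% of resident-like cells and 4.02% of cells with 0 Itga1 UMIs. Klrk1, the activating receptor NKG2D, was at 81.8 CPM against 27.8 CPM (2.94, 2.43 to 3.53). Klrb1b was at 52.1 CPM against 8.68 CPM (6.00, 4.64 to 7.71) but in 20 cells. Klrc2, Klre1 and Klrb1c were higher as well but rarer, Klre1 being found in 7 resident-like cells and Klrb1c in 9, and these genes lie in families of similar sequence, so reads may have been split between copies. Without TRAV11-TRAJ18 cells 6 of 7 measured genes (Klrb1b, Klrc1, Klrc2, Klrd1, Klre1 and Klrk1) were higher, in a comparison where 9.90% of all genes were called (5.05% higher and 4.85% lower), and Klrb1c (NK1.1) fell to 9 UMIs.

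Cytotoxicity genes split into broad and single-cell signals. Of 12 measured genes 6 were higher and none lower. Ctsw, a protease of cytotoxic lymphocytes, was at 656 CPM against 227 CPM (2.89, 2.70 to 3.08), Fasl, the death ligand, at 204 CPM against 91.6 CPM (2.23, 1.98 to 2.50) and the granzyme inhibitor Serpinb9 at 113 CPM against 43.5 CPM (2.60, 2.22 to 3.04). Gzma came first among the genes of at least 50 CPM, at a ratio of 7.51, but all 127 of its UMIs lay in 1 cell. Gzmb was at 73.9 CPM against 23.5 CPM, in 8 resident-like cells, 1 of which held 51.6% of the UMIs. Without TRAV11-TRAJ18 cells Gzmb was lower, at 4.66 CPM against 18.5 CPM (0.252, 0.101 to 0.523). Cd160 and Zbtb16 behaved alike, at 20.0 CPM against 5.51 CPM and 14.5 CPM against 4.62 CPM, with ratios of 0.294 and 0.309 on 2 and 1 UMIs once those cells were left out. Of the 450 genes called higher, 319 stayed at a ratio of 1.5 or more without the highest cell of each group (257 genes were called on the counts so reduced), and in 11 genes 1 cell held over 50% of the UMIs. Further genes among the 12 highest were Fgl2 (165 CPM against 38.1 CPM, ratio 4.33), which encodes a secreted immunoregulatory protein, Plac8 (201 against 57.5 CPM, 3.49) and the ubiquitin ligase Nedd4 (57.5 against 15.4 CPM, 3.75).

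Genes called in the lists of other helper lineages were lower. Of 14 measured Th17 genes 8 were lower and none higher. Ccr6, a Th17 homing receptor, was at 1.82 CPM against 42.3 CPM, and Il23r, the receptor that maintains Th17 cells, at 9.69 CPM against 53.3 CPM. Il22 was at 0 UMIs in resident-like cells, which allows up to 1.82 CPM, against 22.6 CPM, at least 12.4-fold lower. Of 9 follicular helper genes 6 were lower, among them Slamf6 at 33.3 CPM against 119 CPM and Izumo1r at 33.3 CPM against 113 CPM, and of 9 regulatory genes 4 were lower, among them Ikzf2 at 23.0 CPM against 122 CPM. The type 2 helper list had 2 of 4 genes lower and none higher, and 5 of the 9 regulatory genes were neither. The cells with 0 Itga1 UMIs include cells with Il17a, Ifng or Foxp3, which the rule removes from the resident-like cells, and 88.9% of the 368 brain cells with an Il17a UMI had 0 Itga1 UMIs.

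Against the 1538 cells that had 0 UMIs of Itga1 and of Il17a, Ifng and Foxp3, where the cytokine rule is the same on both sides, 14.1% of 8522 genes were called (8.50% higher and 5.64% lower). The residency list had 19 of 39 genes higher and 1 lower, the recirculation list 3 of 18 higher and 13 lower, and the Th1 list 9 of 13 higher and 1 lower. Zfp683 stood at 61.8 CPM against 5.05 CPM, a ratio of 12.2 (8.96 to 16.8), Xcl1 at 138 CPM against 12 CPM, a ratio of 11.5 (9.40 to 14.1), and Tbx21 at 112 CPM against 21.5 CPM, a ratio of 5.21 (4.31 to 6.27). The Th17 list had 5 of 12 genes lower and 1 higher, with Ccr6 at a ratio of 0.0530 and Il23r at 0.225. The regulatory list had 1 of 8 genes in each direction. The chemokine Ccl1, which was lower against all cells with 0 Itga1 UMIs at 15.1 CPM against 101 CPM, was higher here at 15.1 CPM against 6.80 CPM (2.23, 1.37 to 3.49), with 14 of its 25 UMIs in 1 resident-like cell. With the 3 transcripts absent on both sides, the residency and Th1 lists thus had more genes called higher, and the regulatory list leaned neither way.

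**Figure D3:**
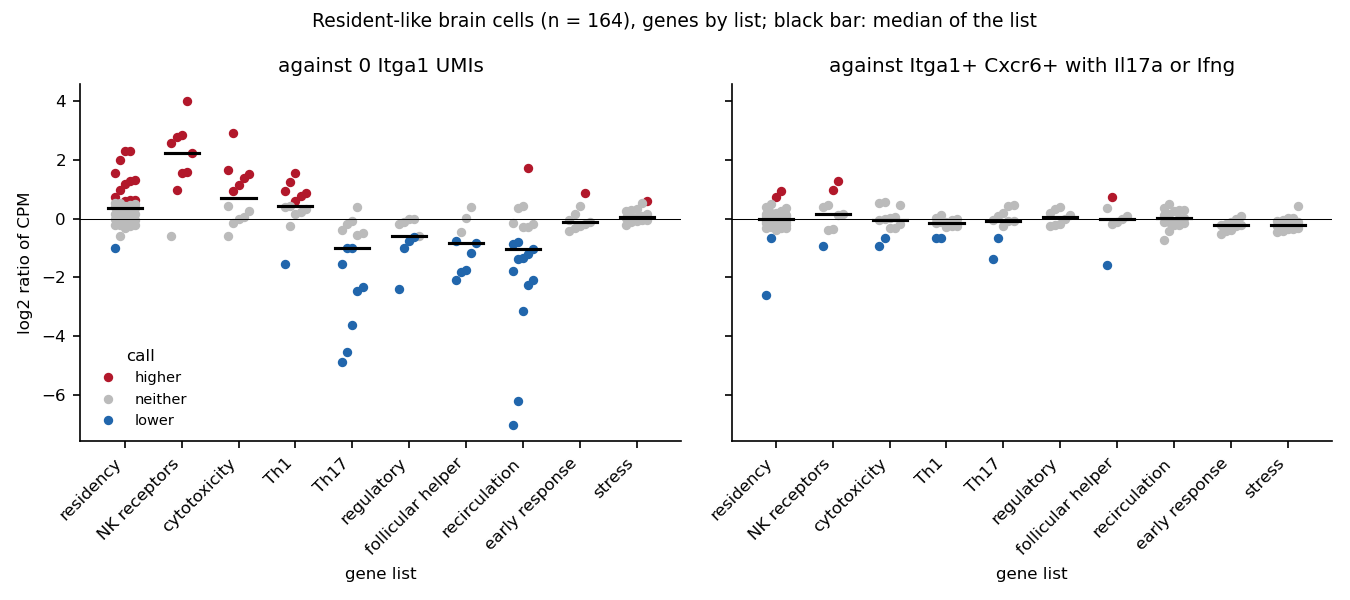
Log2 ratio of CPM for each measured gene of 10 lists in resident-like cells against brain cells with 0 Itga1 UMIs (left) and against cytokine-positive Itga1+ Cxcr6+ cells (right). Each point is a gene coloured by its call, and black bars are list medians; on the left the NK receptor median is 2.24 and the recirculation median -1.05, while on the right they are 0.17 and 0.02.

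Several further lists had genes called in both directions. The chemokine receptor list had 2 of 11 genes higher and 4 lower, the transcription factor list 3 of 32 higher and 9 lower, the cytokine receptor list 3 of 20 higher and 5 lower, the costimulation list 2 of 13 higher and 3 lower, and the interferon-stimulated list 4 of 15 higher and 1 lower, while a list of other cytokines had 5 of 12 lower and none higher. Among costimulatory genes Cd226, an activating receptor of T and NK cells, was at 339 CPM against 189 CPM (1.79, 1.64 to 1.96), and Tnfsf8, the CD30 ligand, at 116 CPM against 348 CPM (0.333, 0.287 to 0.384). Early-response genes, which tissue dissociation can raise, had 1 of 9 genes higher, Egr1, at 830 CPM against 454 CPM (1.83, 1.73 to 1.93), and a median log2 ratio of -0.10. Stress and dissociation genes had 1 of 15 higher, the transforming growth factor beta pathway 1 of 13 lower and the cell cycle list 1 of 7 lower. Of 9 survival genes 2 were higher, among them Bcl2, which protects lymphocytes from death, at 554 CPM against 367 CPM (ratio 1.51), and 0 of 9 without TRAV11-TRAJ18 cells, where Bcl2 was at 1.42. Inhibitory receptors were mixed, 4 of 12 higher and 4 lower: Entpd1, the ectoenzyme CD39, was at 60.6 CPM against 23.2 CPM (2.61, 2.09 to 3.22) and Cd200r1 at 70.9 CPM against 33.2 CPM (2.13, 1.75 to 2.59), whereas Lag3 was at 4.84 CPM against 21.0 CPM and the transcription factor Tox at 98.7 CPM against 263 CPM (0.376, 0.320 to 0.439). Id2, a regulator of effector and innate-like lymphocytes, was at 1146 CPM against 633 CPM (1.81, 1.73 to 1.90).

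Set against the 820 Itga1+ Cxcr6+ cells that did have Il17a or Ifng, few of these gene groups stood apart. Of 8475 genes tested 173 (2.04%) were higher and 158 (1.86%) lower, 3.91% in all. The residency list had 2 of 39 genes higher and 2 lower, the recirculation list 0 of 17 in either direction, the Th1 list 2 of 12 lower and the NK receptor list 2 of 9 higher and 1 lower. Zfp683 stood at 61.8 CPM against 74.8 CPM (0.826, 0.665 to 1.02), Tbx21 at 112 CPM against 125 CPM (0.899, 0.766 to 1.05), Klf2 at 182 CPM against 197 CPM (0.921, 0.813 to 1.04) and S1pr1 at 37.5 CPM against 34.7 CPM (1.08, 0.812 to 1.42). For these 4 genes the interval includes 1 and leaves out a 2-fold difference. The share of cells with a Zfp683 UMI was lower, 32.3% (25.2% to 40.1%) of resident-like cells against 45.1% (41.7% to 48.6%) of cytokine-positive cells, as was that with Zfp683 or Xcl1, 82 of 164 cells (42.1% to 57.9%) against 64.3% (60.9% to 67.6%). With cells thinned to 5000 UMIs and shallower cells left out, the Zfp683 share was 17.4% (11.6% to 24.6%) of 144 resident-like cells. It was 29.1% (25.9% to 32.4%) of 798 cytokine-positive cells.

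Several chemokine genes and 2 growth factor genes were among the genes that were lower. Of 6 measured chemokine genes 5 were lower and none higher, with a median log2 ratio of -1.84. Ccl4, an inflammatory chemokine, was at 26.6 CPM against 162 CPM (0.165, 0.119 to 0.223), and its relative Ccl3 at 1.21 CPM against 44.0 CPM on 2 UMIs. Ccl1 was at 15.1 CPM against 86.6 CPM (0.175, 0.113 to 0.26), Cxcl10 at 32.7 CPM against 73.8 CPM (0.443, 0.330 to 0.585) and Xcl1 at 138 CPM against 221 CPM (0.625, 0.543 to 0.717). The growth factors Csf2 (GM-CSF), at 12.7 CPM against 30.9 CPM (0.411, 0.251 to 0.640), and Csf1, at 14.5 CPM against 40.5 CPM (0.358, 0.227 to 0.541), were lower too. So were Nkg7 (491 against 781 CPM, 0.628), Rgs16 (32.1 against 95.5 CPM, 0.336), Nrgn (23.6 against 65.0 CPM, 0.363) and Trerf1 (37.5 against 76.7 CPM, 0.489). In Cxcl10, 35 of 54 resident-like UMIs, and in Rgs16 26 of 53, lay in 1 cell. When resident-like cells were allowed 1 UMI of Il17a and Ifng together (287 cells), Xcl1 and Ccl1 stood above the remaining cytokine-positive cells, at ratios of 1.32 and 1.84. The higher genes at 50 CPM or more were St8sia1, a ganglioside synthase, at 113 CPM against 56.8 CPM (1.99, 1.68 to 2.36), Ramp3, a receptor activity-modifying protein, at 60.0 against 29.9 CPM (2.0, 1.58 to 2.52), Qpct at 70.9 against 37.0 CPM (1.92, 1.54 to 2.36), Klrb1b at 52.1 against 26.6 CPM (1.96, 1.52 to 2.51), the linker histone H1f0 at 117 against 74.0 CPM (1.59, 1.35 to 1.86) and Nt5e, the ectoenzyme CD73, at 113 against 72.3 CPM (1.57, 1.33 to 1.84).

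The same comparison could be restricted to clonotypes, cells that share both receptor chains, with counts summed over clonotypes and not paired by clonotype. There were 41 clonotypes that held both kinds of cell, with 54 resident-like and 170 cytokine-positive cells, and 7.08% of 8546 genes were called in this smaller set (3.77% higher and 3.31% lower). The mix of clonotypes differed between the sides. A TRBV26, TRAV7-5-TRAJ32 clonotype gave 1 resident-like and 23 cytokine-positive cells, and a TRBV1, TRAV8D-1-TRAJ37 clonotype gave 4 and 8. The part of this mix in the ratios below was not tested. Zfp683 stood at 62.1 CPM against 69.2 CPM (0.897, 0.592 to 1.32) and Tbx21 at 97.8 CPM against 129 CPM (0.757, 0.550 to 1.03). Ccl4 was again lower, at 16.9 CPM against 52.9 CPM (0.320, 0.142 to 0.633), and Nkg7 too, at 459 CPM against 828 CPM (0.554, 0.482 to 0.635). Qpct was again higher, at 77.1 CPM against 38.7 CPM (1.99, 1.32 to 2.97), as was Ramp3, at 84.6 CPM against 18.0 CPM (4.71, 2.94 to 7.61). Xcl1 turned round to 97.8 CPM against 67.6 CPM (1.45, 1.03 to 2.02), and Cxcl10 to 80.9 CPM against 28.3 CPM (2.85, 1.86 to 4.36). The 1 cell with most of the resident-like Cxcl10 UMIs is among these 54 cells and holds most of this Cxcl10 level. The cell cycle list had 7 of 10 genes lower: Mki67, the proliferation marker, gave 4 UMIs in 54 resident-like cells (ratio 0.127). The interferon-stimulated list had 10 of 15 genes higher, but 1 cell held 67.2% of the Ifit3 UMIs and 75.6% of the Rsad2 UMIs. Without the highest cell of each group 5 of these 10 genes (Rsad2, Ifit3b, Rtp4, Mx1 and Ifit3) stayed at a ratio of 1.5 or more.

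In spleen 311 of 8159 cells (3.81%, 3.41% to 4.25%) met the same rule, but they were mostly of another kind. The invariant receptor chain TRAV11-TRAJ18, which defines invariant NKT cells, was carried in brain by 15 of the 134 resident-like cells whose receptor was paired (11.2%, 6.40% to 17.8%), against 228 of 273 such cells in spleen (83.5%, 78.6% to 87.7%). It was carried by 73 of 654 cytokine-positive brain cells (11.2%) and 30 of 2283 brain cells with 0 Itga1 UMIs (1.31%). Among all Itga1+ Cxcr6+ cells, the share without Il17a, Ifng and Foxp3 was 16.1% (13.9% to 18.5%) of 1017 cells in brain and 71.7% (67.2% to 75.9%) of 434 cells in spleen. Over all cells of the rule, brain against spleen, 24.8% of 8825 genes were called (9.27% higher and 15.5% lower in brain).

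Among cells with a paired receptor other than TRAV11-TRAJ18, 119 resident-like cells in brain were set against 45 cells in spleen, and 16.8% of 8833 genes were called (6.45% higher and 10.3% lower in brain), with a median log2 ratio over all genes of -0.13. The residency list had 24 of 40 genes higher and 3 lower in brain (median log2 ratio 1.55), and the recirculation list 11 of 18 lower and none higher (median -0.71). Cd69 was at 914 CPM against 123 CPM (7.45, 5.48 to 10.4), Rgs1 at 1065 CPM against 114 CPM (9.35, 6.81 to 13.2), and Klf2 at 196 CPM against 584 CPM (0.336, 0.278 to 0.407). Zfp683, at 46.7 CPM against 67.2 CPM (0.696, 0.423 to 1.18), and Xcl1, at 126 CPM against 96.4 CPM (1.31, 0.894 to 1.96), had intervals that include 1. The NK receptor list went the other way, with 8 of 11 genes lower in brain and 1 higher, for example Klrk1 at 64.9 CPM against 423 CPM (0.153, 0.116 to 0.202). Tbx21 was at 107 CPM against 242 CPM (0.441, 0.333 to 0.587) and Ccl5 at 539 CPM against 2050 CPM (0.263, 0.236 to 0.292). Early-response genes moved with this comparison, 9 of 11 higher in brain at a median log2 ratio of 2.90 (Fos at 1632 CPM against 32.1 CPM), as did 10 of 15 stress genes and 14 of 15 interferon-stimulated genes. Tissue, digestion and library cannot be told apart here, and the part of the early-response genes in the residency count was not tested.

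The receptors show which families of cells the resident-like cells belong to. A paired receptor was read in 134 of 164 resident-like cells, forming 119 clonotypes, which were defined by the V genes and the CDR3 nucleotide sequences of both chains. The CDR3 is the loop, encoded across the join of the gene segments, that touches the antigen. The sequences below are shown for clone 1, which held 4 resident-like cells, for clones 12 and 13, which had more brain cells than any other clonotype with a resident-like cell, for 3 clonotypes of like receptors, and for the invariant alpha chain. They run 5′ to 3′, and capitals mark bases outside the V start and J end most often seen among receptors with that V and J gene. The deposited receptor tables give no positions in the genome.
Clone 1, TRBV20-TRBJ2-5, beta: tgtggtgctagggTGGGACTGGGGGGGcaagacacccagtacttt
Clone 1, TRAV7D-2-TRAJ23, alpha: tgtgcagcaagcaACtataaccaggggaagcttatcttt
Clone 12, TRBV13-3-TRBJ2-5, beta: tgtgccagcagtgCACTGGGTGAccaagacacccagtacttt
Clone 12, TRAV13N-1-TRAJ21, alpha: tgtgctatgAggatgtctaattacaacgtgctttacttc
Clone 13, TRBV26-TRBJ1-5, beta: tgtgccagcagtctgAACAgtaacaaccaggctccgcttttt
Clone 13, TRAV7-5-TRAJ32, alpha: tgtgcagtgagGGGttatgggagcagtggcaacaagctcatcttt
Clone 3, TRBV26-TRBJ1-2, beta: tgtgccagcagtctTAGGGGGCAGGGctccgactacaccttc
Clone 14, TRBV26-TRBJ1-1, beta: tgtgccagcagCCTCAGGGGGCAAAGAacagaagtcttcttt
Clone 23, TRBV26-TRBJ1-2, beta: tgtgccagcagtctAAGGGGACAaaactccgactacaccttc
Clones 3 and 14, TRAV9-1-TRAJ22, alpha: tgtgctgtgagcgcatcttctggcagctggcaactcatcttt
Clone 23, TRAV9-1-TRAJ22, alpha: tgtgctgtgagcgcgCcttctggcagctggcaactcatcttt
Invariant TRAV11-TRAJ18 alpha of 6 resident-like cells: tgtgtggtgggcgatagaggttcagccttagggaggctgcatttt

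Clone 1 held 4 resident-like cells of 48 brain cells, of which 20 had Il17a and 30 had Ifng. Clone 12 held 1 of 67 brain cells, of which 59 had Ifng and 0 had Il17a, and clone 13 held 1 of 57, of which 53 had Ifng and 0 had Il17a. Clones 3, 14 and 23 use the same V genes on both chains. The alpha CDR3 of clones 3 and 14 was identical over 42 bases while their beta CDR3 differed at 13 of 42 bases, and clone 23 differed from clone 3 at 2 alpha and 5 beta bases. Together they are separate rearrangements that resemble each other, with 28, 23 and 6 brain cells, 2, 1 and 1 of them resident-like. No cell of these 3 clonotypes had an Il17a UMI.

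Resident-like cells belonged to expanded clonotypes more often than all cells with 0 Itga1 UMIs, and the interval of their share overlapped those of cytokine-positive cells and of Cxcr6+ cells without Itga1. A clonotype with at least 2 brain cells held 74 of 134 resident-like cells (55.2%, 46.4% to 63.8%), 57.6% of 654 cytokine-positive cells (53.8% to 61.5%) and 35.7% of 2283 cells with 0 Itga1 UMIs (33.7% to 37.7%). Among Cxcr6+ cells with 0 UMIs of Itga1, Il17a, Ifng and Foxp3 it was 49.5% of 461 (44.8% to 54.1%). Of the recirculating phenotype 3.01% were in such clonotypes. Clonotypes of 5 or more cells held 25.4% of resident-like cells, 35.2% of cytokine-positive cells and 19.6% of cells with 0 Itga1 UMIs. The resident-like cells were spread thinly over these clonotypes: at most 4 shared one, and the chance that a random pair of them had the same clonotype was 0.236%, against 0.513% in cytokine-positive cells and 0.135% in cells with 0 Itga1 UMIs. The 15 TRAV11-TRAJ18 cells were 15 different clonotypes, all with 1 brain cell, so without them the expanded share was 62.2% of resident-like cells, against 64.0% of cytokine-positive cells and 36.0% of cells with 0 Itga1 UMIs.

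The receptor was found again in spleen for 21 of the 134 resident-like cells (15.7%, 9.97% to 23.0%), 25.2% of cytokine-positive cells (21.9% to 28.7%) and 16.4% of cells with 0 Itga1 UMIs (14.9% to 18.0%). Large clonotypes are found more easily in a second sample, so the shares were also read by clonotype size. Among cells alone in their clonotype, 1 of 60 resident-like cells (1.67%) had its receptor in spleen, against 6.14% of cytokine-positive cells and 5.92% of cells with 0 Itga1 UMIs. In clonotypes of 2 to 4 brain cells it was 22.5% of resident-like cells, 19.7% of cytokine-positive cells and 29.2% of cells with 0 Itga1 UMIs. In clonotypes of 5 to 9 cells it was 12.5% of resident-like cells, 28.6% of cytokine-positive cells and 34.3% of cells with 0 Itga1 UMIs. In those of 10 or more it was 9 of 18 resident-like cells, 68.9% of cytokine-positive cells and 44.0% of cells with 0 Itga1 UMIs. Weighted to the sizes of the resident-like clonotypes, the share in cells with 0 Itga1 UMIs was 21.4%. The intervals of resident-like cells overlapped those of both other groups at every size and over all sizes, and the difference in sharing was not tested.

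**Figure D4:**
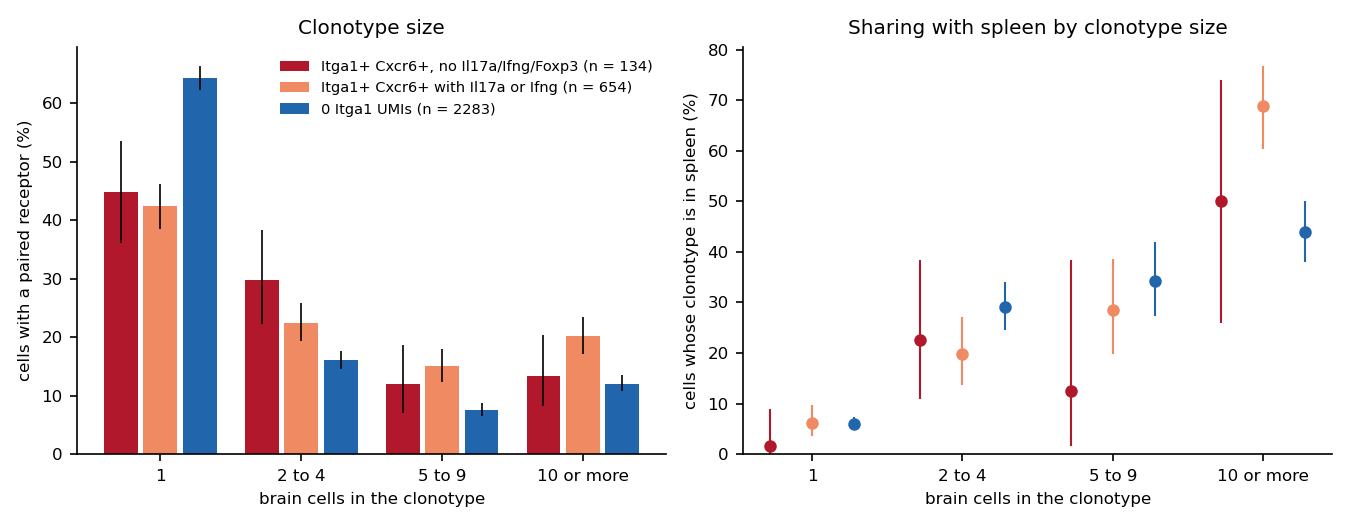
Left, share (%) of paired cells by the number of brain cells in their clonotype; right, share (%) whose receptor was also found in spleen, for resident-like cells, cytokine-positive cells and cells with 0 Itga1 UMIs. Bars or points are shares with exact 95% binomial intervals; 44.8% of resident-like cells and 64.3% of cells with 0 Itga1 UMIs were alone in their clonotype, and the sharing intervals of resident-like cells overlap the others at each size.

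Most expanded clonotypes with a resident-like cell also held cells with Il17a or Ifng. Of the 119 clonotypes 60 had a single brain cell and 59 had more, 52 of which included cells with Il17a or Ifng and 41 the Itga1+ Cxcr6+ cytokine-positive kind. All 23 clonotypes of 5 or more brain cells with a resident-like cell had cells with Il17a or Ifng. Of their cells 25% to 95.7% had either transcript (median 71.4%). Either transcript was also present in 68.9% of the 810 cells in expanded clonotypes without a resident-like cell. At that share a clonotype of several cells is likely to hold such a cell. The same counts were not made for clonotypes without a resident-like cell. Resident-like cells were 34 of the 393 cells in these 23 clonotypes (8.65%, 6.07% to 11.9%), and Itga1+ Cxcr6+ cytokine-positive cells were 148 (37.7%, 32.9% to 42.7%). The clonotypes with a resident-like cell were 35.9% of the 64 brain clonotypes of that size. Brain cells that shared a clonotype with a resident-like cell, its clonal relatives, numbered 411 in 58 clonotypes. Of these relatives 76.6% (72.2% to 80.7%) had Ifng, 9.73% (7.04% to 13.0%) had Il17a and 41.6% (36.8% to 46.5%) had both Itga1 and Cxcr6. In the 810 other expanded cells, of 233 clonotypes, these shares were 57.4% (53.9% to 60.8%), 14.7% (12.3% to 17.3%) and 25.8% (22.8% to 29.0%). Clone 12, with 59 Ifng cells, and clone 13, with 53, weigh heavily among the relatives, each through 1 resident-like cell. Cells were pooled over clonotypes, so the intervals do not cover the spread between clonotypes, and the difference was not tested. Resident-like cells are themselves left out of the relatives, which removes cells without cytokine transcripts from that side alone. Clonotypes with Il17a cells were 9 of the 59, among them clone 1 and a TRBV3, TRAV6N-7-TRAJ13 clonotype with 2 resident-like cells of 19, 8 cells with Il17a and 8 with Ifng. Foxp3 was found in 1 of the 411 relatives.

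**Figure D5:**
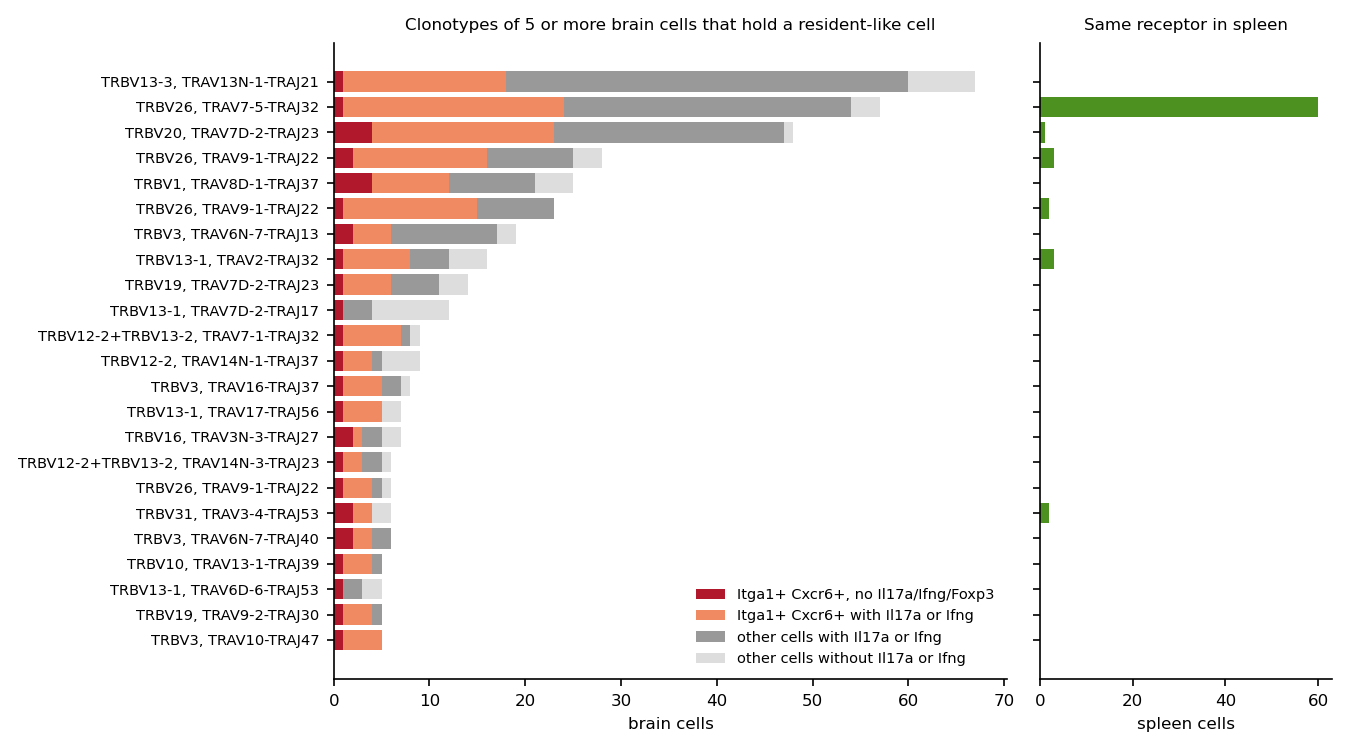
The 23 clonotypes of 5 or more brain cells that hold a resident-like cell, named by V and J genes. Left, brain cells of each kind; right, spleen cells with the same receptor; resident-like cells number 1 to 4 in each, and 60 of the spleen cells belong to the TRBV26, TRAV7-5-TRAJ32 clonotype.

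Most clonal relatives in spleen had Cxcr6, and few had Itga1, Zfp683 or Xcl1. The 15 clonotypes found in both tissues had 93 spleen cells, 60 of them from clone 13. Cxcr6 was present in 86.0% of the 93 and Itga1 in 10.8%, while Xcl1 was at 0 of 93, an exact interval that reaches 3.89%, and Zfp683 was found in 3 cells (3.23%). In the other 6656 spleen cells with a receptor Itga1 was present in 5.93%, Xcl1 in 8.52% and Zfp683 in 7.83%. Those other cells include 659 with the TRAV11-TRAJ18 chain, while the relatives include none. The part of TRAV11-TRAJ18 cells in these differences was not tested. Klf2 was at 182 CPM and S1pr1 at 37.5 CPM in all 164 resident-like brain cells, of which 21 had a receptor found in spleen. Summed over these spleen relatives the 2 genes were at 1052 and 250 CPM, and over the other 6656 spleen cells at 609 and 259 CPM. S1pr1 in the relatives was thus near the level of other spleen cells, and the brain and spleen libraries differ as described above. Ccr7 was present in 7.53% of these relatives, against 61.8% of the other 6656 spleen cells with a receptor, Ifng in 46.2% against 7.72% and Cxcr6 in 86.0% against 22.4%. Looked at from spleen, 14 of the 45 cells that met the rule there with a paired receptor other than TRAV11-TRAJ18 (31.1%, 18.2% to 46.6%) had a clonotype seen in brain, against 0 of 228 TRAV11-TRAJ18 cells (interval up to 1.60%).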

How the data were processed

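Per the labels, RNA and receptor libraries were made from CD4+ CD44+ GITR- cells with a 5′ droplet kit, and per the submitters' processing notes the software was Cell Ranger 9.0.0. The authors deposited UMI counts per gene and barcode, and contig tables with read and UMI counts per receptor chain. Several genome builds are named without their role, so no coordinates are given. A barcode was kept if it had 500 genes and 1000 UMIs or more, at most 10% mitochondrial UMIs, at most 1 productive beta and at most 2 productive alpha chains. Doublets were treated by the chain filter alone.

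Counts were summed over the cells of a group and divided by the group's total (CPM). Ratios have exact conditional binomial 95% intervals, and shares have Clopper-Pearson intervals. PCR duplicates were collapsed by UMI upstream. A gene at 0 UMIs was bounded by 3 counts. Thinning used 5000 UMIs per cell, seed 1, and left out shallower cells. Clonotypes needed identical V genes and CDR3 bases in both chains, the alpha chain with most UMIs being used.

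Named genes were the markers, the 12 highest and 12 lowest ratios of at least 50 CPM (6 and 6 in the other comparisons) by the interval bound nearest 1, and up to 4 genes per list. Any other gene was picked with its values in view, as was the definition of the recirculating phenotype, and a few genes are not reported here. The members and the 35 gene lists were chosen with earlier results of these data known. Of 368 list entries, 5 had no matching symbol. Alternatives covered scaling (edgeR 4.0.16), filters, comparison cells, membership and clonotype definition. Python 3.11.15, numpy 2.4.6, scipy 1.17.1 and pandas 2.3.3 were used. The script's statistics were tested on simulated data.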

Additional observations from a re-analysis of the deposited data

How the results depend on the processing

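Of 202 values of the 16 summary results under other settings, 175 stayed within the limits used (1.5 times for a count, the interval for a share), 27 moved and 0 reversed. Of 1005 ratios for 65 pairs of a named gene and a comparison, 792 stayed, 199 moved and 14 turned round. No replicates could be paired because each tissue has 1 RNA library, and the 41 clonotypes with both kinds of cell were summed, not paired. Depth limits what 164 cells can show: genes under 10 CPM were not tested, and shares of 134 receptors carry wide intervals. TMM factors and median-of-ratios size factors moved no summary count. The cause of the moves below was not tested unless the setting itself changes the cells or genes counted.

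Genes higher than in cells with 0 Itga1 UMIs numbered 450, against 708 with genes of at least 1 CPM, 724 with comparison cells that also lacked Il17a, Ifng and Foxp3, 1130 with comparison cells that lacked Cxcr6 as well, and 257 without each gene's highest cell. Genes lower numbered 430, against 685 with the cells that lacked Cxcr6 as well. The residency list's 12 higher genes became 19 and 23 with these comparison cells. Against cytokine-positive cells, genes higher numbered 173, against 358 at 1 CPM, 411 with members lacking 10 other cytokines, 275 with each clonotype counted once, 322 within clonotypes that hold both kinds and 67 without the highest cell. Genes lower there numbered 158, against 248, 253, 249, 283 and 286. Genes lower than in spleen numbered 1371, and 912 with paired receptors other than TRAV11-TRAJ18 alone. In cells with 0 Itga1 UMIs the expanded share of 35.7% became 25.4% and 10.6% with the 2 stricter comparison groups, the pair chance of 0.135% became 0.0420% and 0.0140%, 0.127% without the clonotype with most members and 0.142% by the beta chain alone, and the spleen share of 16.4% became 12.2%, 7.75% and, by the beta chain alone, 18.4%.

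Ratios against cells with 0 Itga1 UMIs that turned round were Gzmb (0.252) and Cd160 (0.294) without TRAV11-TRAJ18 cells, Zbtb16 (0.309 without those cells, 0.508 with members lacking 10 other cytokines), Ccl1 (2.23 and 2.79 with the stricter comparison cells, 1.15 allowing 1 cytokine UMI), and Csf2 (35.9, on few comparison UMIs) with comparison cells lacking Cxcr6 as well. Against cytokine-positive cells they were H1f0 (0.952, members lacking 10 other cytokines), Ccl1 (1.84) and Xcl1 (1.32) allowing 1 cytokine UMI, and Rgs16 (1.20), Cxcl10 (2.85, with most UMIs in 1 cell) and Xcl1 (1.45) within clonotypes that hold both kinds. The settings on the highest cell, 1 cytokine UMI, 5 cytokine UMIs, shared barcodes, both kinds of clonotype and paired receptors in spleen were chosen after seeing the data.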
